A study of Mus musculus with 4 samples.

Results

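The comparison described here was that of Zip7 KO with control crypt cells labelled Lgr5-Med, the second of the fractions into which crypt cells of the mouse small intestine had been sorted by the fluorescence of an Lgr5 reporter. It rested on 2 of the 4 arrays of the series, 1 Zip7 KO array and 1 control array, and its values were the differences, Zip7 KO minus control, of log2 RMA values per probe set. All probe sets to which the platform annotation gives 1 gene symbol entered, and of several probe sets of a gene the one brightest on average across the 4 arrays stood for it, for 19938 genes in all. The sample titles call the fraction Lgr5-Mid and the source names Lgr5-Med.

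The Zip7 KO mice had the genotype Zip7flox/flox with the drivers villin-CreERT2 and Lgr5-EGFP-ires-CreERT2. The control mice were Zip7flox/+ with the same drivers, so they too carried 1 floxed allele and both sources of tamoxifen-inducible Cre recombinase. All mice were adult and had tamoxifen for 2 days, after which small intestinal crypts were isolated and sorted by FACS. The villin promoter drives Cre in the intestinal epithelium, and the Lgr5 driver is a knock-in that also marks the sorted cells with EGFP. The labels do not give the number of animals behind an array, nor whether the fractions of a genotype came from the same mice. With 1 array per group there was no spread between animals, and no difference was tested.

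ZIP7, encoded by Slc39a7, is a zinc transporter of the endoplasmic reticulum (ER) and Golgi that releases stored zinc into the cytosol. The base of the small intestinal crypt holds Lgr5-positive stem cells between Paneth cells, and the progeny of the stem cells divide as they move upward and become absorptive enterocytes or secretory goblet, enteroendocrine and tuft cells. Crypt cells also respond to interferons and to microbes with antiviral and antimicrobial genes.

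The markers of the labels were read first. Slc39a7 stood at 8.61 on the control array and 8.22 on the Zip7 KO array, a difference of -0.39, and at 8.92 and 9.02 on the arrays labelled Lgr5-Hi. No source used here places its probes inside or outside the floxed part of the gene, so these levels check nothing about the deletion. Lgr5 stood at 10.97 (control) and 11.24 (Zip7 KO) on the arrays labelled Lgr5-Med but at 7.79 and 7.93 on those labelled Lgr5-Hi, so it ran against the fraction labels. Ascl2, a stem cell transcription factor, did the same, with 9.54 and 9.40 against 7.65 and 7.51. The labels are kept as given, and each genotype difference pairs arrays of 1 label. The epithelial adhesion gene Epcam stood at 11.59 and 11.66 and the brush border gene Vil1 at 11.58 and 11.28. Xist, the RNA that silences an X chromosome in female cells, stood at 11.84 in the control but at 5.43 in the Zip7 KO array, below the floor, and Y-linked transcripts (Eif2s3y, Kdm5d, Uty) showed the opposite. Sex, genotype and array therefore cannot be told apart in any value below.

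A gene was counted where it lay above a floor on at least 1 of the 2 arrays. One that was above it on 1 array alone was nearly bound to be lower on the other. The floor was percentile 95 of 1207 genes of odorant, pheromone and trace amine receptors, which gut cells should not express. It lay at 6.10 on the control and 6.16 on the Zip7 KO array. Of 12243 genes counted, 76 were at least 2-fold lower (0.621%) and 8 at least 2-fold higher (0.0653%) in the Zip7 KO array, where 2-fold is 1 on the log2 scale. At 1.5-fold the counts were 257 lower (2.10%) and 52 higher (0.425%). By any amount, 55.8% of the genes were lower and 44.1% higher, and the median difference was -0.03. The receptor genes, whose differences show the scatter of unexpressed probe sets, had a standard deviation of 0.17 and ranged from -0.57 to 0.91, with 0 of them past 2-fold. Of the 76 lower genes, 59 were above the floor on both arrays, and 71 stayed at least 2-fold lower with the floor in place of values below it. Of the 8 higher genes, 4 had a control value below the floor, and 7 stayed at least 2-fold higher with the floor in its place. In the arrays labelled Lgr5-Hi, 28 of 11988 genes were at least 2-fold lower (0.234%) and 30 at least 2-fold higher (0.250%).

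**Figure D1:**
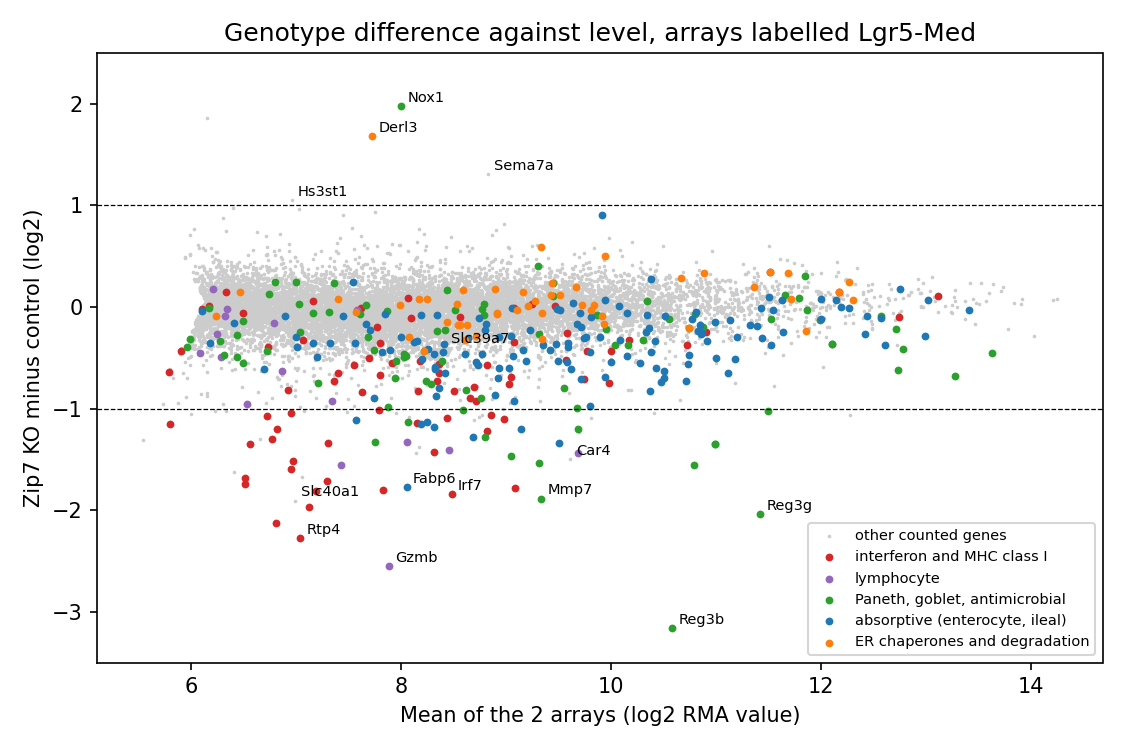
Difference between the Zip7 KO and the control array labelled Lgr5-Med (vertical axis, log2) against the mean of the 2 arrays (horizontal axis, log2 RMA value), 1 point per counted gene, with 5 groups of gene lists in colour and dashed lines at 2-fold. Points of the interferon, Paneth and lymphocyte groups lie below the lower line, with Reg3b at -3.16 the lowest shown, while Nox1 at 1.97 and Derl3 at 1.68 lie above the upper line. Xist and Y-linked Eif2s3y, Kdm5d and Uty lie beyond the vertical axis.

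Interferon-stimulated genes were the largest group among those that were lower. These genes are switched on by interferons through receptor-bound kinases and STAT and IRF transcription factors, and their products sense, degrade or trap foreign nucleic acids and proteins. Of 61 counted genes in 5 lists of sensors, transcription factors, effectors, ISG15 enzymes and GTPases, 57 were lower in the Zip7 KO array. Of the 61, 25 were at least 2-fold lower. Over all counted genes, 55.8% were lower and 0.621% at least 2-fold lower. The median of the 61 was -0.78, beside -0.03 over all counted genes. Members below the floor with Zip7 KO were nearly bound to be lower by the counting rule. The 25 made up 32.9% of the 76 genes at least 2-fold lower.

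Of the receptors, ligands and receptor kinases, the first step of the pathway, 7 of 9 counted genes were lower and 0 passed 2-fold, with a median of -0.02. The lowest were Tyk2, a receptor-bound kinase, at -0.44, Ifnlr1 at -0.35 and Ifngr2, a chain of the interferon gamma receptor, at -0.31. Ifnar1 and Ifnar2, which form the type I receptor, differed by -0.02 and -0.01, with levels of 8.62 and 8.60 for Ifnar1 and of 8.02 and 8.01 for Ifnar2. Ifngr1, the partner chain of Ifngr2, stood at 10.28 and 10.50, and Ifnlr1, the receptor chain specific to interferon lambda, at 7.37 and 7.02. The ligand genes Ifnb1 and Ifng were below the floor on both arrays. Ifnl2, an interferon lambda ligand gene, was counted and was higher by 0.23 in the Zip7 KO array.

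Among transcription factors, 10 of 13 were lower and 3 were at least 2-fold lower, with a median of -0.71. Irf7, which amplifies interferon induction, stood at 9.40 in the control and 7.56 in the Zip7 KO array, and at 9.62 and 8.50 in the arrays labelled Lgr5-Hi. Both Zip7 KO values lay below both controls, and the difference labelled Lgr5-Med was -1.84, or 3.58-fold. Stat2, a subunit of the complex that binds interferon response elements, stood at 8.72 and 7.58, and Irf9, its DNA-binding partner, at 9.18 and 8.25. Sp100, a nuclear body protein, was at least 3.01-fold lower, since its Zip7 KO value was below the floor. Irf1 (-0.75) and Irf8 (-0.71) were lower by less.

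Of the sensors, which detect foreign nucleic acids, 9 of 10 were lower, with a median of -0.74. Zbp1, a sensor of left-handed nucleic acid, stood at 8.72 in the control and 6.93 in the Zip7 KO array, and at 8.71 and 7.29 in the arrays labelled Lgr5-Hi. The Zip7 KO values were the lower ones under both labels. Dhx58 differed by -1.52, Ddx58, which encodes the RNA sensor RIG-I, by -0.78 and its relative Ifih1 by -0.56. Tlr3, the endosomal RNA receptor, stood at 8.15 and 8.04.

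All 28 counted antiviral effectors were lower and 15 of them passed 2-fold, for a median of -1.04. All 28 were above the floor in the control but 21 with Zip7 KO, so for the rest the direction was nearly fixed by the counting rule. Rtp4 stood at 8.17 in the control, was below the floor with Zip7 KO, and was at least 4.04-fold lower. Oasl2, a relative of the enzymes that make 2-5A, stood at 9.97 and 8.19, and at 9.91 and 8.15 in the arrays labelled Lgr5-Hi. Its 2 genotype differences, -1.78 and -1.76, were nearly alike. Ifit1, which binds foreign RNA caps, stood at 8.09 and 6.28, and Rsad2, the antiviral enzyme viperin, at 7.41 and 6.22. Oas2 differed by -1.34, less than its -1.94 under the label Lgr5-Hi.

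The smaller lists ran the same way. The list of ISG15 enzymes also held Isg20, a gene outside that system. All 5 counted members were lower, with a median of -0.55, and 3 were above the floor with Zip7 KO. Usp18, the protease that removes ISG15, was at least 3.84-fold and the ligase Herc6 at least 2.33-fold lower, whereas Isg20 stood at 7.62 and 7.61. All 5 counted GTPases of the GBP and IRG families, which act on vacuoles of intracellular microbes, were lower, with a median of -0.89. Here too 3 were above the floor with Zip7 KO. Gm12250 stood at 8.15 and 6.43, Irgm1 at 9.10 and 8.21 and Gbp7 at 7.47 and 6.43.

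Promoters of interferon genes past 2-fold are shown, for the 9 genes that hold a match, because the members were lower together and many carry the sequence that STAT and IRF complexes bind, the interferon-stimulated response element. Windows of 300 bases, 250 before and 50 after a transcript start, came from RefSeq on GRCm38.p6, and the core, GAAA, any 2 bases and again GAAA, was searched on both strands. It was present for 9 of 18 genes with a window among the 25 at least 2-fold lower (50%), for 21 of 49 of the interferon lists (42.9%), for 335 of 9772 counted genes (3.43%) and for 1079 of 27025 genes of the table (3.99%). Within the lists, the 21 genes with a match had a median difference of -0.78 and the 28 with a window and no match one of -0.72. Irf7, at -1.84, had a window and no match. A match is a description of letters and not a site of binding. Sequences run 5′ to 3′ on the strand of the gene, with the matches in capitals, so that TTTC marks a match on the other strand. Of the 9, the 4 with the largest differences are given as whole windows and the other 5 as excerpts with 20 bases on each side of 1 match.
Trim30a promoter window, chr7:104465144-104465443, minus strand: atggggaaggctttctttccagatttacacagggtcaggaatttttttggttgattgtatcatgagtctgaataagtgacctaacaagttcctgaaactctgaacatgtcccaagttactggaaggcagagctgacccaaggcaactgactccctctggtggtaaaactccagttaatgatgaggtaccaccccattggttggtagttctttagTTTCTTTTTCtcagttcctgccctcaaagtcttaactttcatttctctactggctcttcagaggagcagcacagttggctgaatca
Ifit1 promoter window, chr19:34640639-34640938, plus strand: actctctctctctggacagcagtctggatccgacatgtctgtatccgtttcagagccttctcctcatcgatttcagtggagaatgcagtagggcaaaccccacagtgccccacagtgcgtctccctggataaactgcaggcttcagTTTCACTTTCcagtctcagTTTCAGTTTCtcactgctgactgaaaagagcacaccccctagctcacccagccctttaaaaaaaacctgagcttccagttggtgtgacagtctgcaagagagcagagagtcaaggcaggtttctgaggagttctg
Gm12250 promoter window, chr11:58183593-58183892, plus strand: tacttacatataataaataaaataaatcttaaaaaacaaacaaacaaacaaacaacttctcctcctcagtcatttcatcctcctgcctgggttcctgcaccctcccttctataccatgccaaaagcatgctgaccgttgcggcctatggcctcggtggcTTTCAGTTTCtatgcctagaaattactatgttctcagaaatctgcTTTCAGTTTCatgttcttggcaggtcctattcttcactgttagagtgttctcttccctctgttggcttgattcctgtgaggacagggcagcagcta
Ddx60 promoter window, chr8:61927837-61928136, plus strand: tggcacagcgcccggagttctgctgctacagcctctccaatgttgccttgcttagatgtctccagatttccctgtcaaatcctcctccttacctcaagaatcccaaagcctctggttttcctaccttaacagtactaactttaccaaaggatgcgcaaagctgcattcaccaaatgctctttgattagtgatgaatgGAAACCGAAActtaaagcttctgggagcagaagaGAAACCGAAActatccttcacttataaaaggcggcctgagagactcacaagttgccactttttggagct
Ifit3 excerpt, chr19:34583387-34583436, plus strand: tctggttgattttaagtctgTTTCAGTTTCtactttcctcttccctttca
Oas3 excerpt, chr5:120777705-120777754, minus strand: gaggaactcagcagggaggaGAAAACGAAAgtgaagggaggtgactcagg
Rsad2 excerpt, chr12:26456543-26456592, minus strand: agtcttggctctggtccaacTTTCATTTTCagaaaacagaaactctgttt
Stat2 excerpt, chr10:128270256-128270305, plus strand: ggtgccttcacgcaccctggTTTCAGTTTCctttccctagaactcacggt
Gbp7 excerpt, chr3:142530263-142530312, plus strand: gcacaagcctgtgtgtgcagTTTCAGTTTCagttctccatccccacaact
In Ifit1 both matches lay on the other strand, their first bases 104 and 85 bases before the start, and in Ddx60 both lay on the strand of the gene, 53 and 19 bases before it. Trim30a has a second window with 1 match that is not printed.

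Antigen presentation by MHC class I, which interferons also raise, was lower for 12 of 17 counted genes, with a median of -0.33 and 1 gene past 2-fold. That gene was Tap1, a subunit of the peptide transporter of the ER, at 9.02 and 7.60 in the arrays labelled Lgr5-Med and at 9.11 and 8.13 in those labelled Lgr5-Hi. Each Zip7 KO value lay below each control. The immunoproteasome subunits Psmb8 and Psmb9 differed by -0.83 and -0.76. B2m, the light chain of class I molecules, stood at 13.06 and 13.17, and Nlrc5, a class I transactivator, at 9.23 and 9.26. The Nlrc5 difference of 0.03 became -0.83 when the mean of all its probe sets was taken.

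Genes of intraepithelial and other lymphocytes were also lower. Gzmb, which encodes the cytotoxic protease granzyme B, stood at 9.16 in the control and 6.61 in the Zip7 KO array, and at 8.33 and 6.86 in the arrays labelled Lgr5-Hi. The Zip7 KO arrays were the lower ones under both labels, and the difference was 5.86-fold for Lgr5-Med. Nkg7, a protein of cytotoxic granules, stood at 8.20 and 6.65, the chemokine Ccl5 at 10.41 and 8.97, and Cd7, a surface marker of intraepithelial lymphocytes, at 9.15 and 7.75. The T cell receptor chain Cd3e differed by -0.93 and Cd8a by -0.63, and Cd3g, below the floor with Zip7 KO, was at least 1.80-fold lower. Of 32 marker genes, 16 were counted, 15 of them lower and 5 at least 2-fold lower, with a median of -0.56. This median depended on the floor, at -0.24 with none and -1.14 with the floor at percentile 99. All 16 counted genes were above the floor in the control but 12 with Zip7 KO. For the rest the direction was nearly fixed by the counting rule.

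The level of lymphocyte RNA therefore moved with the interferon result. The lymphocyte list had 16 genes above the floor on the control and 12 on the Zip7 KO array, against 13 and 12 under the label Lgr5-Hi, and the median level of its counted members was 7.10, 6.58, 7.01 and 6.38 in that order. Cd3d, Cd4, and the B cell genes Cd79a and Ms4a1 were below the floor on both arrays. The part of these cells in the interferon difference was not tested. In sorted bulk samples, fewer cells of a type and less RNA per cell cannot be told apart, here and in the marker lists that follow.

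Genes of MHC class II, expressed by antigen-presenting cells and by part of the intestinal epithelium, were lower for all 7 counted members, with a median of -0.45 and 0 past 2-fold. H2-Ab1 stood at 11.56 and 10.80, its partner H2-Aa at 10.91 and 10.49, and Ciita, the master regulator of the class, at 7.76 and 7.12. The invariant chain gene Cd74 stood at 11.92 and 11.77. The macrophage genes Csf1r, C1qa and Adgre1 were below the floor on both arrays. Of 22 myeloid and mast cell markers 7 were counted, 4 of them lower, with a median of -0.33 that turned to 0.023 with no floor. The count past 2-fold was 1, Fcer1g, whose difference was -0.58 with the floor in place of its Zip7 KO value. Stromal, endothelial and red blood cell markers had a median of 0.07 over 7 counted of 20, 5 of them higher, and one of -0.02 after quantile normalisation.

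**Figure D2:**
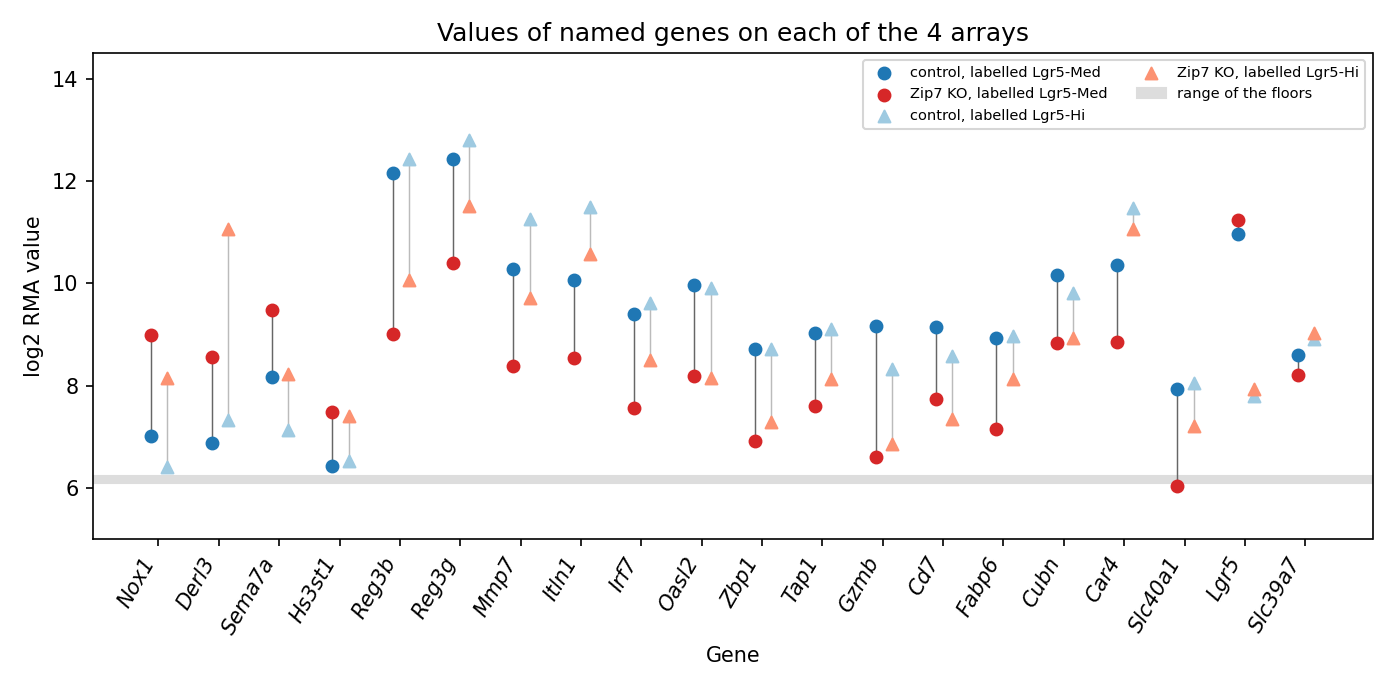
log2 RMA values of 20 named genes on the 4 arrays, with circles for the arrays labelled Lgr5-Med and triangles for those labelled Lgr5-Hi, control in blue, Zip7 KO in red, and the range of the floors of the 4 arrays as a grey band. Nox1, Derl3, Sema7a and Hs3st1 are higher and Reg3b to Slc40a1 lower in Zip7 KO under both labels, Derl3 stands highest in the Zip7 KO array labelled Lgr5-Hi at 11.06, and Lgr5 is near 11 in both arrays labelled Lgr5-Med and near 8 in the others.

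The largest autosomal difference was that of an antimicrobial lectin. Reg3b stood at 12.16 in the control and 9.003 in the Zip7 KO array, and at 12.42 and 10.06 in the arrays labelled Lgr5-Hi. Both Zip7 KO values lay below both controls, with differences of -3.16 (8.92-fold) for Lgr5-Med and -2.36 for Lgr5-Hi. Its neighbour in the family, Reg3g, stood at 12.44 and 10.40, and Reg4 at 10.28 and 9.08. Reg1 was just outside the 2-fold line, at 10.18 and 9.18, and stood higher in Zip7 KO under the label Lgr5-Hi, at 10.85 against 10.59. Duox2, an oxidase of the epithelial surface, and its maturation factor Duoxa2 differed by -0.82 and -0.98, and the inducible nitric oxide synthase Nos2 by -0.73. Of 41 counted antimicrobial and microbe-induced genes 31 were lower and 3 passed 2-fold in that direction. Their median was -0.28.

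Nox1 went the other way. This NADPH oxidase of the gut epithelium stood at 7.01 in the control and 8.99 in the Zip7 KO array, and at 6.42 and 8.15 in the arrays labelled Lgr5-Hi. Both Zip7 KO values lay above both controls, and the difference was 1.97, or 3.93-fold, for Lgr5-Med. Nox1 lies on the X chromosome, and sex and genotype cannot be told apart in its values.

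Paneth cell genes, which encode granule proteins of the crypt base, were lower for 18 of 19 counted members and past 2-fold for 7, and their median was -0.62. Mmp7, the protease that activates mouse defensins, stood at 10.27 and 8.39 in the arrays labelled Lgr5-Med and at 11.27 and 9.72 in those labelled Lgr5-Hi. It was 3.70-fold lower for Lgr5-Med, and each Zip7 KO value lay below each control. The colipase gene Clps stood at 11.56 and 10.01, the lectin Itln1 at 10.08 and 8.54, the phospholipase Pla2g2a at 9.78 and 8.31, and the ribonuclease Ang4 at 9.44 and 8.16. Lyz1, the Paneth lysozyme, was among the brightest and differed less, at 13.61 and 12.94, as did Defa24 at 13.04 and 12.43. Defa39, a defensin gene in none of the lists and named after its value was seen, was past 2-fold. It stood at 12.81 and 11.74, and at 13.50 and 13.15 under the label Lgr5-Hi. Most other defensin probe sets name several genes and were not analysed here. The median difference of the same Paneth members was -0.38 under the label Lgr5-Hi, and their median level was 10.27 and 8.75 on the arrays labelled Lgr5-Med against 10.83 and 10.25 on the others.

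Goblet cell mucus and granule genes were lower for 23 of 28 counted members and past 2-fold for 4, and their median was -0.34. Muc2, the main mucin of the gut, stood at 12.01 and 10.98 in the arrays labelled Lgr5-Med, and at 13.03 and 12.79 in those labelled Lgr5-Hi. The others past 2-fold were Spink4 (-1.34), which is also in the Paneth list, and the chemokines Ccl9 (-1.13) and Ccl6 (-1.02). The peptide hormone Guca2a differed by -0.80. Other genes of the same cells did not share the shift, with Tff3, a trefoil peptide, at 12.05 and 11.92 and the disulfide isomerase Agr2 at 11.60 and 11.72. Spdef, a transcription factor of goblet cells, stood at 7.64 and 7.57.

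Absorptive genes were lower by small amounts for many members. Across the 4 enterocyte lists and the list of ileal bile acid and vitamin B12 uptake, 129 of 142 counted genes were lower and 8 at least 2-fold lower, with a median of -0.33. Over the same genes the median was 0.03 under the label Lgr5-Hi, and 134 of the 142 had a lower difference for Lgr5-Med than for Lgr5-Hi. That contrast between labels was not tested.

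Ileal uptake genes held the largest differences among them. All 14 were lower, with a median of -0.30. Fabp6, the ileal bile acid binding protein, stood at 8.93 and 7.16, and at 8.97 and 8.14 in the arrays labelled Lgr5-Hi. Cubn, the cubilin receptor for vitamin B12 bound to intrinsic factor, stood at 10.17 and 8.83, and its partner Amn differed by -0.46. Both genes of the basolateral bile acid exporter were lower, with differences of -0.87 for Slc51a and -0.93 for Slc51b, whereas Fgf15, an ileal hormone induced by bile acids, stood at 6.94 and 6.85. Slc10a2, the apical bile acid transporter, stood at 6.36, near the floor, and was below it with Zip7 KO.

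Brush border digestive enzymes were lower for all 18 counted members, with a median of -0.48 and 0 past 2-fold. The aminopeptidase Enpep stood at 10.79 and 9.95 in the arrays labelled Lgr5-Med, and at 10.88 and 11.01 in those labelled Lgr5-Hi. Alpi, the alkaline phosphatase of the brush border, likewise stood at 11.44 and 10.79 against 11.62 and 11.95. For Enpep and Alpi the Zip7 KO array was the lower one under the label Lgr5-Med and the higher one under Lgr5-Hi. Of all 18 enzymes, 11 were higher and 7 lower under Lgr5-Hi, with a median of 0.05. There, 55.0% of all counted genes were higher. Lactase, Lct, differed by -0.44 and sucrase-isomaltase, Sis, by -0.18.

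Of the transporters of sugars, amino acids, nucleosides and ions, 34 of 38 were lower and 4 at least 2-fold lower, with a median of -0.39. The phosphate transporter Slc34a2 stood at 9.74 and 8.55, the sodium-proton exchanger Slc9a3 at 8.90 and 7.72, and S100g, a calcium-binding protein, at 8.81 and 7.68. G6pc, the glucose-6-phosphatase, stood at 8.12 and 7.01 but at 7.45 and 7.40 under the label Lgr5-Hi. The sodium-glucose cotransporter Slc5a1 differed by -0.50 and the peptide transporter Slc15a1 by -0.33.

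Genes of lipid absorption were lower for 30 of 31 members, 1 of them past 2-fold, and their median was -0.31. That gene was Pdk4, a kinase that restrains pyruvate use, at 8.76 and 7.61. Dgat2, an enzyme of triglyceride synthesis, differed by -0.97, the fatty acid binding protein Fabp1 by -0.51 and Apoa1 by -0.37. The single higher member was the desaturase Scd2, at 9.46 and 10.37. Brush border structural genes were lower for 33 of 41, with a median of -0.20 and 1 gene past 2-fold, Ceacam20, at 9.32 and 8.05. Krt20, a keratin of mature cells, differed by -0.73, while Epcam differed by 0.07 and Hnf4g by -0.06.

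**Figure D3:**
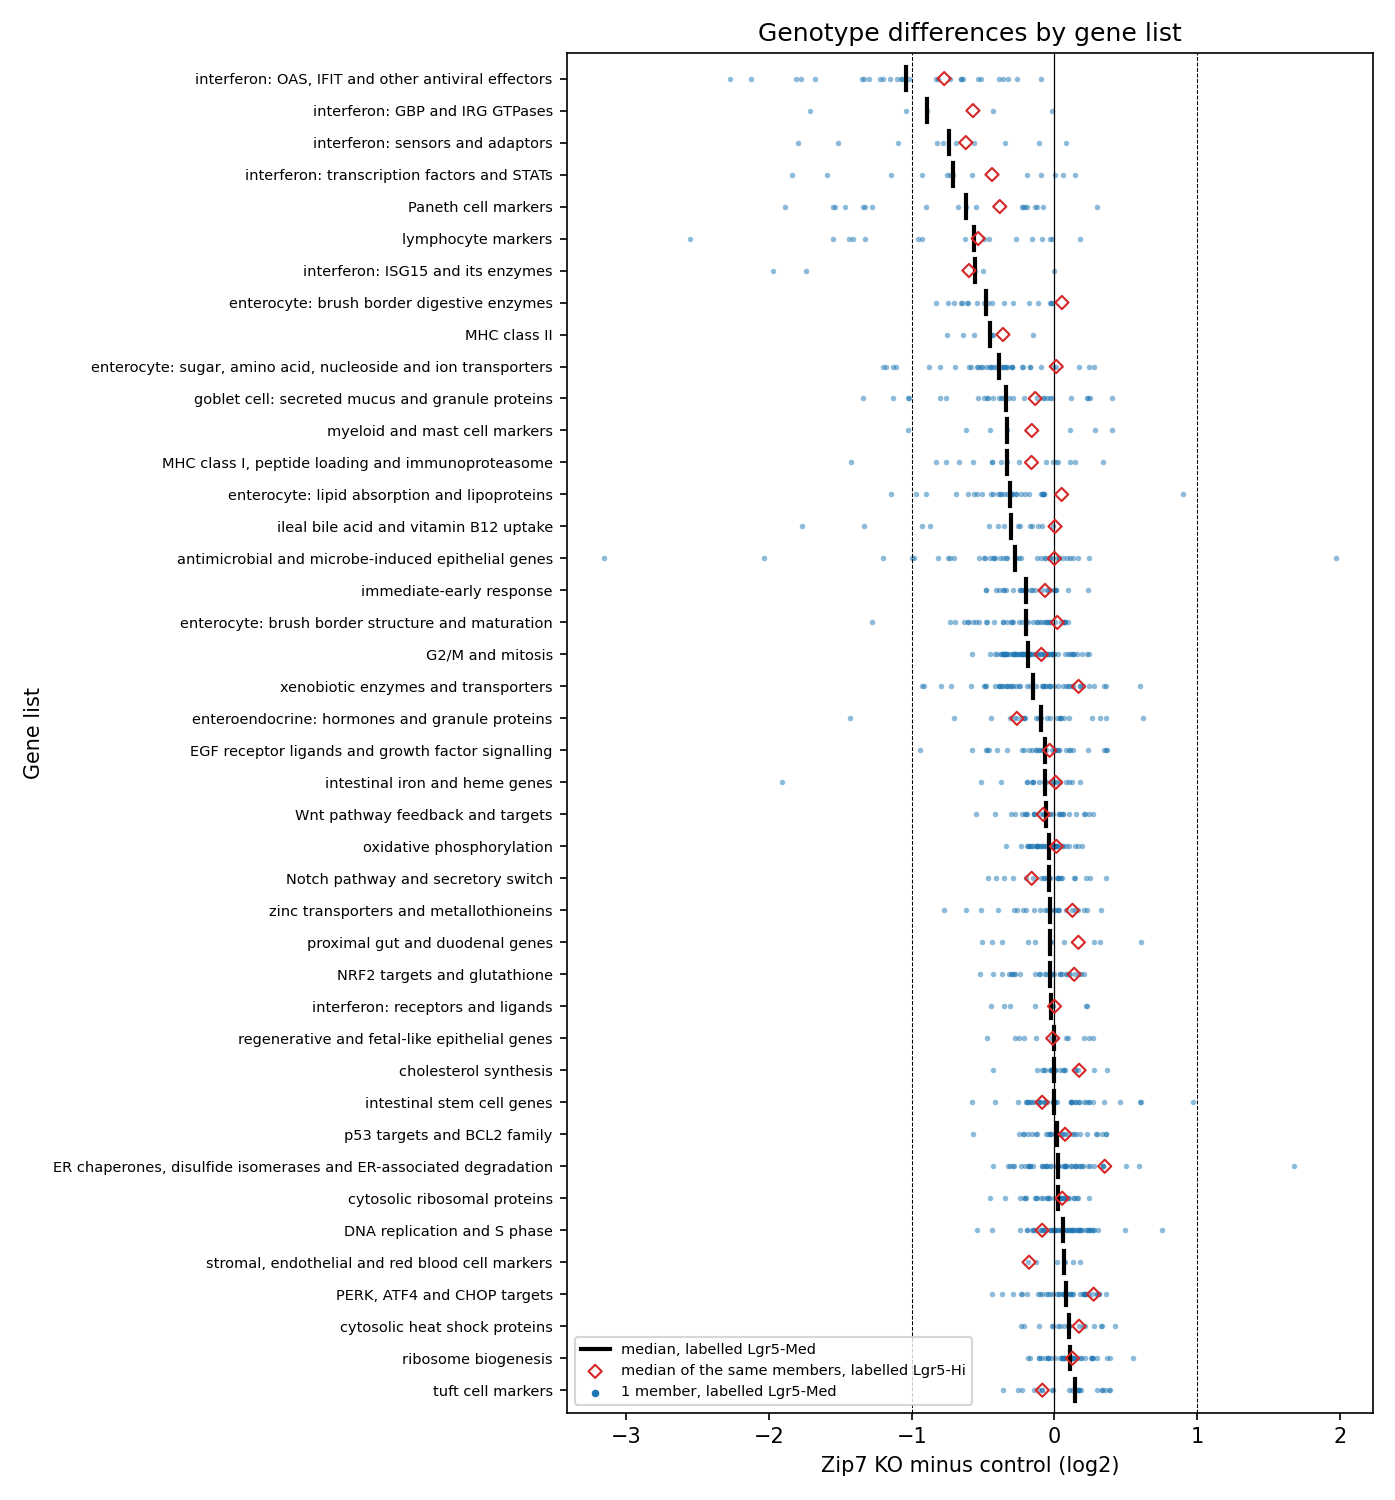
Genotype differences (horizontal axis, log2) of the counted members of 42 gene lists on the arrays labelled Lgr5-Med (blue points, 1 per gene), with the median of each list as a black bar and the median of the same members on the arrays labelled Lgr5-Hi as a red diamond. The interferon effectors have the lowest median at -1.04, the 5 absorptive lists lie between -0.48 and -0.20 with diamonds near 0, and the ER chaperone list has its bar at 0.03 and its diamond at 0.35.

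Other cell lineages differed less. Enteroendocrine hormone and granule genes had a median of -0.10 over 26 counted members, 16 of them lower. The proglucagon gene Gcg stood at 8.85 and 7.42, and at 10.93 and 10.55 under the label Lgr5-Hi, and Chga, a granule protein, at 9.66 and 8.95. Somatostatin, Sst, was higher at 7.60 and 8.22. Tuft cell markers were higher for 13 of 22 members, beside 44.1% of all counted genes, with a median of 0.14. That median was 0.06 after quantile normalisation. Under the label Lgr5-Hi, 7 of the 22 were higher and 15 lower, with a median of -0.08. Dclk1, a marker kinase of tuft cells, was higher by 0.36 for Lgr5-Med, while Espn of the same list differed by -0.36. Duodenal and proximal genes had a median of -0.03 over 11 members. Among them Gkn3, which also served here as a stem cell marker, stood at 8.99 and 9.59, and at 6.85 and 7.20 under the label Lgr5-Hi.

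Among genes of iron handling 14 of 21 were lower, with a median of -0.06. The exception in size was Slc40a1, ferroportin, the iron exporter of the plasma membrane, which stood at 7.94 in the control, was not above the floor with Zip7 KO, and was at least 3.44-fold lower. Under the label Lgr5-Hi it stood at 8.04 and 7.22, again with the Zip7 KO array lower. The heme and folate transporter Slc46a1 differed by -0.51 and the ferroxidase Heph by -0.37, while the transferrin receptor Tfrc stood at 10.47 and 10.49.

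Zinc genes, which bear on the deleted transporter, had a median of -0.03 over 25 counted members, 14 lower and 11 higher, with 0 past 2-fold. Slc30a1, the zinc exporter of the plasma membrane, stood at 7.97 and 7.20, and Slc39a4, the zinc importer of the apical membrane, at 10.23 and 9.61. The zinc-induced metallothioneins Mt1 and Mt2 stood at 11.62 and 11.77 and at 11.55 and 11.88. Their differences of 0.15 and 0.32 were close to those under the label Lgr5-Hi, 0.13 and 0.27.

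ER chaperones, disulfide isomerases and degradation factors, the output of the unfolded protein response, differed little apart from Derl3. Of 49 counted genes 29 were higher, with a median of 0.03, beside 44 higher and a median of 0.35 under the label Lgr5-Hi, where 55.0% of all counted genes were higher. Derl3, a derlin that takes part in removing misfolded proteins from the ER, stood at 6.88 in the control and 8.56 in the Zip7 KO array, and at 7.34 and 11.06 in the arrays labelled Lgr5-Hi. It was higher in Zip7 KO under both labels, by 1.68 (3.21-fold) for Lgr5-Med and by 3.73 for Lgr5-Hi.

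The genes next in size followed Derl3 at a distance. Sdf2l1, a cofactor of ER chaperones, stood at 9.03 and 9.62 and Creld2 at 9.68 and 10.19. The chaperones Hspa5 (BiP) and Hsp90b1 differed by 0.25 and 0.34, and Pdia4 by 0.34 beside 1.12 under the label Lgr5-Hi. Xbp1, a transcription factor of the response, stood at 10.84 and 10.63, and Ern2, the gut form of its activating sensor, differed by -0.43. For 46 of the 49 genes the difference was lower for Lgr5-Med than for Lgr5-Hi, which was not tested.

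The Derl3 promoter is shown because Derl3 alone of this list passed 2-fold, with excerpts from Creld2 and Hspa5 for comparison. The ER stress element, CCAAT, any 9 bases and CCACG, which ATF6 with NF-Y is known to recognise, was searched on both strands of the same 300-base RefSeq windows (GRCm38.p6). It was present for 10 of 40 genes of the list with a window (25%), for 16 of 9772 counted genes (0.164%) and for 37 of 27025 genes of the table (0.137%). The 10 genes with a match had a median difference of 0.19, 9 of them higher, and the 30 without one a median of -0.01, 15 of them higher. Capitals mark the match, which is written as CGTGG to ATTGG where it lies on the other strand.
Derl3 promoter window, chr10:75893148-75893447, plus strand: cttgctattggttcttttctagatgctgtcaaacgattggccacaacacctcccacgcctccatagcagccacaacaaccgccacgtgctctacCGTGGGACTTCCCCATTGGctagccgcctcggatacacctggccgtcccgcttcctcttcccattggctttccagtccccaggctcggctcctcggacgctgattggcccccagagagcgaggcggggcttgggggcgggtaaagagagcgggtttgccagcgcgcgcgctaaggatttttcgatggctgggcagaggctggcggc
Creld2 excerpt, chr15:88819500-88819558, plus strand: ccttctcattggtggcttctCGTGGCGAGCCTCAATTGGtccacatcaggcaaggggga
Hspa5 excerpt, chr2:34772005-34772063, plus strand: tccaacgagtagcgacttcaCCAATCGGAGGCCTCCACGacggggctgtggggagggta
The match of Derl3 began 156 bases before the start, that of Creld2 126 and that of Hspa5 65 bases before it.

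Targets of PERK, ATF4 and CHOP, the arm of the ER stress response that slows translation, were higher for 28 of 41 counted genes, with a median of 0.08 and 0 past 2-fold. Ddit3, which encodes CHOP, stood at 8.21 and 8.51, Trib3 at 6.48 and 6.79, and Chac1, a glutathione-degrading enzyme, at 7.31 and 7.39. Under the label Lgr5-Hi, Chac1 differed by 1.15 and Trib3 by 1.03. Atf4 stood at 8.82 and 8.85 and Asns, a standard ATF4 target, at 10.97 and 11.05. Cytosolic heat shock genes were higher for 14 of 19, with a median of 0.10, and Hsp90aa1 stood at 11.83 and 12.17.

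Stem cell genes lay on both sides of 0. Of 42 counted genes 21 were higher and 21 lower, with a median of 0.00 and 0 past 2-fold. Lgr5 differed by 0.27, Ascl2 by -0.15, Smoc2 by -0.06 and the crypt base marker Olfm4, at 13.53 and 13.75, by 0.22. The stem cell marker Gkn3, given above, differed by 0.61. Slc14a1, a urea transporter, stood at 10.20 and 10.79, and Fstl1, below the floor in the control, at 6.88 with Zip7 KO. Cyp2e1 differed by -0.58. Wnt feedback and target genes had a median of -0.06 over 28 counted members, 17 of them lower. Axin2, a standard Wnt target, stood at 10.45 and 10.35, Myc at 11.17 and 11.14 and the ligand Wnt3, made by Paneth cells, at 6.77 and 6.22.

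Genes of the Notch pathway and the secretory switch had a median of -0.04 over 24 members, 13 of them lower. Atoh1, the factor that commits cells to secretory fates, stood at 8.26 and 7.79 and the Notch ligand Dll4 at 8.63 and 8.22, while Hes1, a Notch target, stood at 9.47 and 9.43. Atoh1 and Dll4 differed similarly under the label Lgr5-Hi, by -0.56 and -0.36. Genes of EGF receptor and growth factor signalling had a median of -0.07 over 34, 20 of them lower. In that list the TGF-beta-induced gene Tgfbi differed by -0.94 and the BMP targets Id1 and Id3 by -0.47 and -0.40.

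Proliferation genes differed by small amounts, with medians on opposite sides of 0 by phase. Of 62 genes of DNA replication and S phase 40 were higher, with a median of 0.06, whereas of 72 genes of G2/M and mitosis 61 were lower, with a median of -0.18, and neither list had a gene past 2-fold. Hells, a chromatin remodeller of replicating cells, stood at 8.52 and 9.28 and Ccne2, a cyclin of S phase entry, at 7.91 and 8.40. Pcna, the replication clamp, differed by 0.25, but the polymerase Pold1 differed by -0.54 and the thymidine kinase Tk1 by -0.43. In the mitotic list Kif2c, a motor that takes microtubules apart, stood at 8.35 and 7.78 and Ttk, a spindle checkpoint kinase, at 7.31 and 6.86. Mki67 differed by 0.03 and Top2a by -0.02. Under the label Lgr5-Hi the medians were -0.09 and -0.09. Ribosome biogenesis genes were higher for 31 of 41, with a median of 0.11, and Npm1, a nucleolar protein, stood at 10.68 and 11.24.

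Immediate-early genes, which respond within minutes to growth factors and to handling of cells, were lower for 23 of 28, with a median of -0.20 and 0 past 2-fold. Ier5 differed by -0.48, Junb by -0.41, Fos by -0.16 and Egr1 by -0.08. Genes of p53 and of the BCL2 family had a median of 0.02 over 31 members, 18 of them higher. Zmat3, a p53 target, stood at 6.43 and 6.80, Ccng1 at 10.70 and 11.03 and the death receptor Tnfrsf10b at 7.96 and 8.32, while the BH3-only genes Bbc3 and Bcl2l11 differed by 0.02 and 0.05. Cdkn1a, whose probe set carries more than 1 symbol, was not analysed here. Genes of fetal-like and regenerating epithelium had a median of -0.01 over 12 members, and Clu, a marker of that state, stood at 6.12 and 6.33.

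Metabolic lists other than that of xenobiotic genes lay close to the median of all genes. Xenobiotic enzymes and transporters were lower for 35 of 50, with a median of -0.15, led by Cyp3a25, at 9.78 and 8.86, and the carboxylesterase Ces1f, at 9.01 and 8.10. Ephx1, an epoxide hydrolase, was higher at 8.33 and 8.93. Targets of NRF2, the regulator of antioxidant genes, had a median of -0.03 over 29 members, with the quinone reductase Nqo1 at 7.44 and 6.92 but at 8.15 and 8.57 under the label Lgr5-Hi. Cholesterol synthesis had a median of 0.00 over 22, oxidative phosphorylation of -0.04 over 38 and cytosolic ribosomal proteins of 0.03 over 36, with 0 genes past 2-fold in each.

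The 8 genes at least 2-fold higher can be given in full. Of these, 4 were the Y-linked Eif2s3y, Uty, Kdm5d and Srsy, which were below the floor in the control, and 2 were Nox1 and Derl3. The remaining ones were Sema7a, a membrane-anchored semaphorin, and Hs3st1, a sulfotransferase of heparan sulfate. Sema7a stood at 8.17 and 9.48, and at 7.14 and 8.22 in the arrays labelled Lgr5-Hi. Hs3st1 stood at 6.43 and 7.48, and at 6.53 and 7.40. Both were higher in Zip7 KO under both labels. Bcl6, a transcriptional repressor, lay just short of 2-fold with a difference of 0.97, and stood at 6.54 and 7.51, and at 6.44 and 7.46 under the label Lgr5-Hi.

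Of the 76 genes at least 2-fold lower, 20 belonged to none of the lists. Car4, a carbonic anhydrase of the apical membrane, stood at 10.36 and 8.86 but at 11.47 and 11.05 under the label Lgr5-Hi. Ptk6, a kinase of differentiated epithelium, stood at 7.22 and below the floor, and was at least 2.08-fold lower. Slc5a4a, of the sodium-glucose cotransporter family, stood at 7.90 and 6.22. The next genes were chosen after their values were seen. St3gal4, a sialyltransferase, stood at 10.31 and 9.07, and at 10.82 and 10.64 under the label Lgr5-Hi. Pck1, the gluconeogenic carboxykinase, stood at 8.62 and 7.53, and Srgn, the proteoglycan of blood cell granules, at 8.86 and 7.48.

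Set beside the other fraction, 73 of the 76 genes lower by 2-fold or more were also counted under the label Lgr5-Hi, and 3 were below the floor on both of its arrays. All 73 were lower there, where 45.0% of all counted genes were lower, and 26 of them passed 2-fold. Another 16 lay within 0.5 of 0. The median difference of the 73 was -1.33 for Lgr5-Med and -0.85 for Lgr5-Hi. The 2 comparisons share no array, but they may share mice, and the sexes differed in both. Members of the interferon lists had medians of -0.78 and -0.61, those of the Paneth, goblet and antimicrobial lists -0.32 and -0.10, and those of the absorptive lists -0.33 and 0.03.

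**Figure D4:**
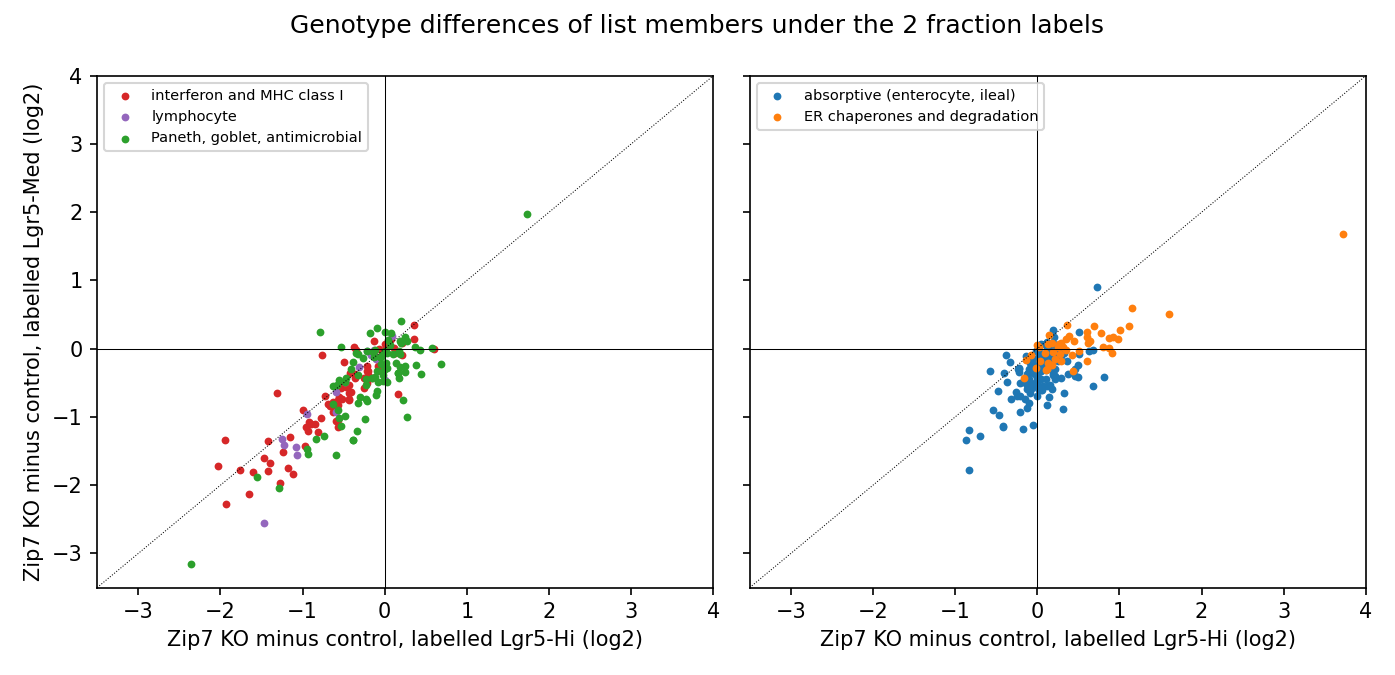
Genotype difference labelled Lgr5-Med (vertical axis, log2) against that labelled Lgr5-Hi (horizontal axis, log2) for counted members of 5 groups of lists, 1 point per gene, with a dotted line where both are equal. Interferon, lymphocyte and Reg3 genes lie low on both axes, absorptive genes lie mostly below 0 on the vertical axis and around 0 on the horizontal one, and Derl3 stands at 1.68 and 3.73.

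Genes close to Slc39a7 were examined because they are inherited together with the floxed allele. Slc39a7 lies on mouse chromosome 17 within the MHC, and of the 20 genes with a probe set on either side of it 35 were counted. Of these 32 were lower, with a median of -0.30, beside 55.8% of all counted genes lower, and 1 was past 2-fold, Tap1. Leaving out members of the interferon, MHC and immune cell lists left 26 genes, of which 23 were lower, with a median of -0.19. The 26 still held H2-K2, an MHC gene in none of the lists, at -0.51, and at -0.50 under the label Lgr5-Hi. Under the label Lgr5-Hi, 17 of those 26 were lower, with a median of -0.03, beside 45.0% of all genes counted there.

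Butyrophilin-like genes were the lowest outside the lists. Btnl2 stood at 9.48 and 8.85 and Btnl1, which supports gut intraepithelial T cells, at 9.01 and 8.41. Under the label Lgr5-Hi they differed by -0.12 and 0.02. Rxrb, the gene next to Slc39a7, stood at 8.71 and 8.42. Linkage, sex and genotype cannot be told apart in these values.

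**Figure D5:**
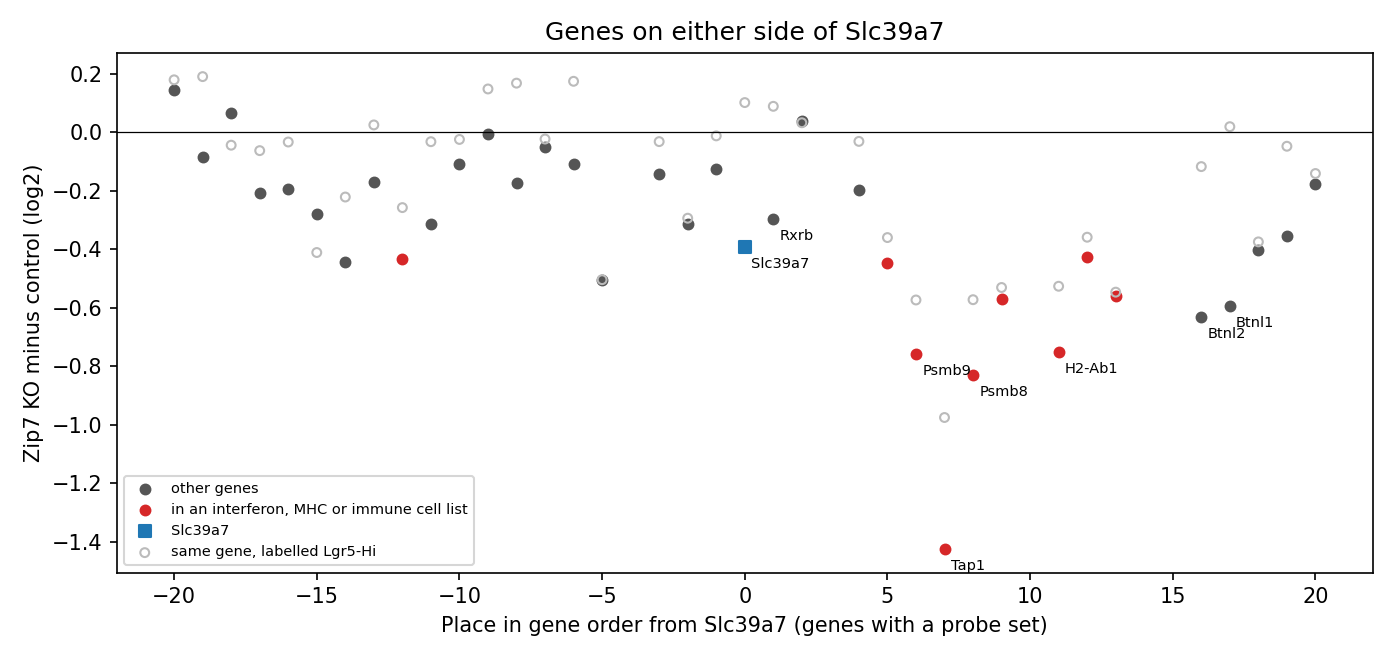
Genotype difference (vertical axis, log2) of counted genes on either side of Slc39a7, by their place in gene order (horizontal axis), with filled symbols for the arrays labelled Lgr5-Med and open grey circles for the same genes labelled Lgr5-Hi. Members of the interferon, MHC and immune cell lists are in red and reach -1.43 at Tap1, and 32 of the 35 neighbours lie below 0.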

How the data were processed

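RNA from 4 sorted cell populations was hybridised to Affymetrix arrays, 1 array per group. The authors deposited 1 value per probe set and array, made with RMA per the submitters' processing notes. The deposited values were taken as log2 from their range, 3.08 to 14.6, since neither log base nor software is named in the sources used here. All 4 columns were used. Of 35557 probe sets, the 21789 with 1 gene symbol in the platform annotation were analysed, and 1621 with several symbols and 12147 not listed were set aside. RefSeq (GRCm38.p6) served for current names (19856 of 19938 genes matched), gene order and promoters.

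Differences were Zip7 KO minus control. With 1 array per group no test was possible, the number of arrays limits the precision, and genes were counted past 2-fold. A value at or below the floor was replaced by the floor where a difference is given as "at least", while counts and medians used deposited values. The 45 gene lists (1417 entries, 1291 with a probe set) and the genes of the comparison were chosen with earlier results of these data known, and entries that matched a wrong gene through an old symbol were removed later. Named genes were the 8 higher genes, the 30 with the largest fall, listed key members and up to 6 others of each list with the largest difference, and up to 6 neighbours of Slc39a7. Alternatives changed the scaling, probe set rule, floor, threshold and gene set. Python 3.11.15, numpy 2.4.6, pandas 2.3.3, scipy 1.17.1 and matplotlib 3.10.9 were used.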

Additional observations from a re-analysis of the deposited data

Results flagged for a closer look

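Xenobiotic enzymes and transporters had medians of opposite sign under the fraction labels, -0.15 for Lgr5-Med and 0.17 for the same members under Lgr5-Hi, a difference that was not tested.

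Probe sets left out of the comparison also held values past 2-fold. Of probe sets with several gene symbols, 66 were past 2-fold upward and 7 downward in the Zip7 KO array labelled Lgr5-Med. All 44 counted ones whose genes lie on the Y chromosome were among the 66, and of the other 1087 counted 22 were higher and 7 lower. Of 5579 counted probe sets that the annotation does not list, 250 were past 2-fold upward and 32 downward, beside 221 and 43 under the label Lgr5-Hi. These probe sets have no gene name here.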

How the results depend on the processing

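The 76 lower and 8 higher genes became 257 and 52 at 1.5-fold. There were 4 higher genes without the sex-linked genes and 4 with both arrays above the floor, and 44 lower genes without the interferon, MHC and immune cell lists. Under the other settings the counts lay between 59 and 82 lower and between 7 and 8 higher. Over all lists and settings, 14 medians moved by more than 0.1 and 1 reversed. With no floor, the medians were -0.63 for sensors, -0.82 for antiviral effectors, -0.43 for GBP and IRG GTPases, -0.24 for lymphocyte, 0.023 for myeloid (reversed), -0.050 for stromal, -0.18 for antimicrobial and -0.13 for proximal genes. With the floor at percentile 99 they were -1.04 for the GTPases, -1.14 for lymphocyte and -0.47 for myeloid markers, and with both arrays above the floor -0.82 for effectors, -1.04 for the GTPases and -0.78 for lymphocyte markers. With the mean of all probe sets the median of the transcription factors was -0.57. Fewer or more members entered under the floor settings, and the cause was not tested otherwise. In all, 9 lists turned sign under some setting, and apart from the myeloid list their medians lay within 0.1 of 0. Of 445 named genes 0 reversed and 6 moved, all with the mean of probe sets. They were Irf1, Nlrc5, Dnaja1, Tk1, Fbl and Taf1d. No paired analysis was possible because each group had 1 array and the groups share 1 replicate number. An additive fit of genotype over both fraction labels was not run.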

Other observations

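Outside Xist, genes of the X chromosome did not shift together, with a median of 0.02 over 314 counted genes on the arrays labelled Lgr5-Med. Of these, 1 was at least 2-fold higher, Nox1, and 1 at least 2-fold lower. Genes with known escape from X inactivation were lower in the Zip7 KO array for 7 of 8 counted members, with a median of -0.27. Under the label Lgr5-Hi 5 of 8 were lower, with a median of -0.10. Kdm6a, a histone demethylase, stood at 9.07 and 8.63, and Eif2s3x, an initiation factor subunit, at 11.89 and 11.54, while Ddx3x stood at 10.64 on both arrays. Housekeeping genes were higher for 14 of 17 members, with a median of 0.08, among them Actb at 13.88 and 13.95. The 6 counted sex-linked genes were of opposite signs, and their median of 2.26 has no meaning of its own.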
